A study of Mus musculus with 6 samples.

Results

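Cd5, Cd6, Ubash3a, Ubash3b, Sit1, Pag1 and Csk encode surface receptors, phosphatases, membrane adaptors and a kinase that weaken signals of the T cell receptor. These 7 genes were taken by symbol from 19938 genes on the arrays. Each had 1 probe set with a single gene symbol, so no choice between probe sets was needed, and no probe set with several symbols named any of them. The arrays were hybridised with RNA of naive CD4 T cells that lacked or carried Ly-6C, a lipid-anchored surface protein, taken from peripheral lymph nodes; the mice were 6 weeks old and of the strain C57BL/6 Foxp3-GFP, and the labels name no treatment of the animals. Ly-6C-negative and Ly-6C-positive cells were otherwise sorted alike, as CD4+, CD8-, TCRβ+, CD44lo, CD25- and Foxp3- cells, where a green fluorescent protein reports the regulatory T cell factor Foxp3. Each population was measured on 3 arrays labelled as biological replicates. The labels do not say which mice gave which cells, so p-values measure the spread between these samples only.

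Engagement of the T cell receptor activates the Src family kinases Lck and Fyn and then the kinase ZAP-70, and each of the 7 products acts near these steps. CD5 and CD6 are related receptors with scavenger receptor cysteine-rich domains, whose tails are phosphorylated after receptor engagement and gather further proteins, and the CD5 level of a T cell is known to be tuned in the thymus by the strength of self-recognition. Ubash3a (Sts-2) and Ubash3b (Sts-1) are phosphatases that act on ZAP-70. Pag1 is a membrane adaptor that holds Csk, the kinase that adds the inhibitory phosphate to Lck and Fyn, and Sit1 is a membrane adaptor found in lymphocytes that restrains receptor signals.

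The values are log2 expression values, on which a difference of 1 is a doubling, and the Ly-6C-positive value is subtracted from the Ly-6C-negative value throughout. The deposited values ran from 2.47 to 13.6, the median gene lay between 6.35 and 6.39 on each array, and having 3 arrays a group sets the precision. All 7 genes were brighter than the median gene. T cell markers were bright in both populations, with Cd3e at 11.76 and 11.78 on average in Ly-6C-negative and Ly-6C-positive cells. Of 19938 genes, 29 passed the threshold of adjusted p 0.05 in limma, or 0.145%, and with the replicate number as a block 41 did, or 0.206%. Same-numbered arrays of the populations deviated together weakly, with correlations of 0.129, 0.128 and 0.107, and their numbers were read as pairs. Arrays of unlike number gave correlations between -0.107 and -0.0114. A gene's deviations cancel over the 3 arrays of a group, so positive same-number correlations make the unlike-number ones negative on average. The contrast between them is therefore no separate evidence of pairing. The labels do not state a pairing, so every result with the block rests on this reading.

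None of the 7 genes passed that threshold without the block, where 0.1% of all genes passed as higher and 0.0451% as lower in Ly-6C-negative cells, and 4 of 7 had an unadjusted limma p under 0.05, as had 6.71% of all genes. With the block, 1 passed: Ubash3b was higher in Ly-6C-negative cells. For 4 of the 7 genes the arrays of the populations did not overlap, against 12.6% of all genes. Cd5, Cd6 and Ubash3b lay higher on every Ly-6C-negative array, where 6.12% of all genes did, and Sit1 lay lower on every one, where 6.5% did. Ubash3a, Pag1 and Csk overlapped. The median difference of the 7 genes was 0.091, beside -0.0048 for all genes, and 5 of the 7 lay above 0, as did 47.8% of all genes. The 7 genes were chosen with earlier results of these data known, so these shares describe them and are not tests. In RNA of sorted populations, a change in the share of cells with a transcript and a change in its amount per cell cannot be told apart.

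**Figure D1:**
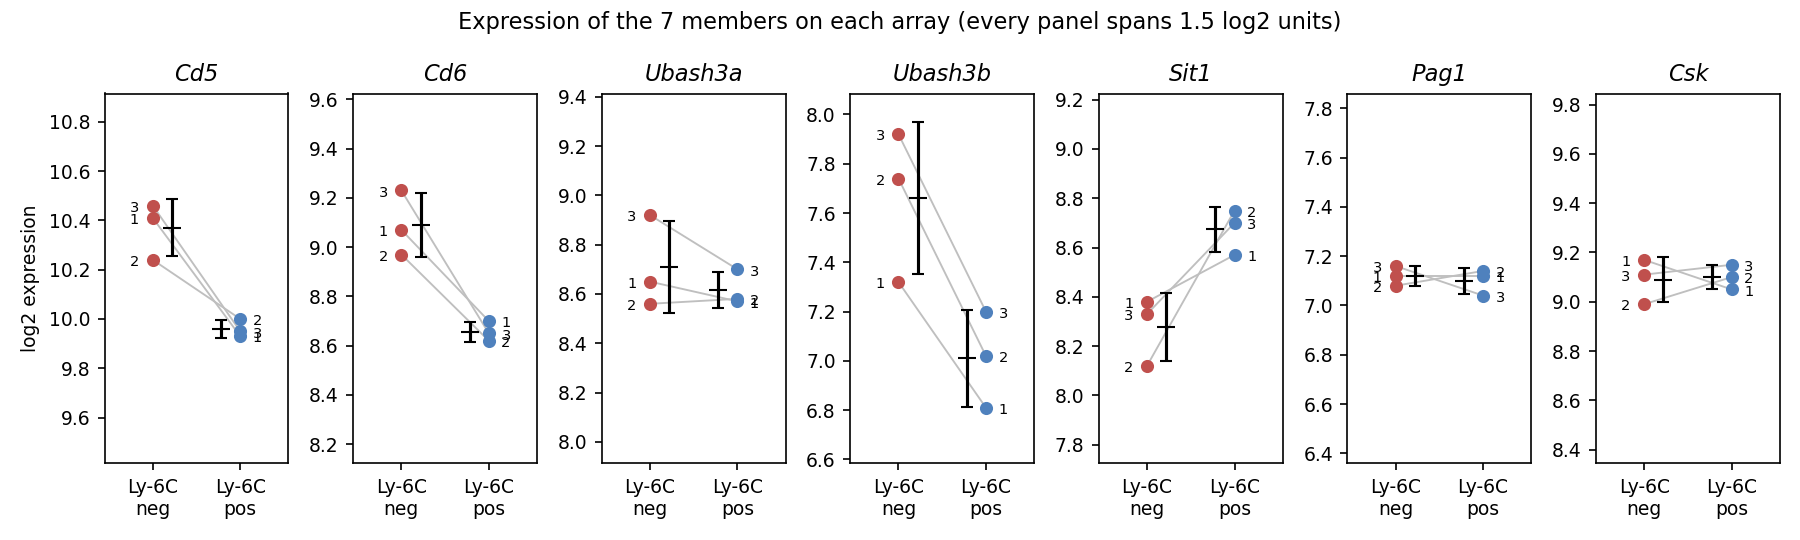
Log2 expression of the 7 genes on each array (y axis) in Ly-6C-negative cells (red, left) and Ly-6C-positive cells (blue, right), numbered by replicate, with grey lines between same-numbered arrays and black bars for the mean ± SD (n = 3). Cd5, Cd6 and Ubash3b are higher on all Ly-6C-negative arrays, Sit1 is lower, and Ubash3a, Pag1 and Csk overlap.

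Cd5 (probe set 10466040) measured 10.41, 10.24 and 10.46 in Ly-6C-negative replicates 1, 2 and 3, against 9.93, 10.00 and 9.95 in Ly-6C-positive replicates 1, 2 and 3. The lowest Ly-6C-negative array, replicate 2, lay 0.24 above the highest Ly-6C-positive array. The means were 10.37 ± 0.12 and 9.96 ± 0.037 in Ly-6C-negative and Ly-6C-positive cells (SD, n = 3 each). The difference was 0.41, or 1.33-fold, with a standard error of 0.076 and a 95% interval from 0.24 to 0.58. It did not pass in limma (adjusted p = 0.139; 0.157 with the block). Between same-numbered arrays Cd5 differed by 0.49, 0.24 and 0.51. A difference as large in size was seen in 88 genes, or 0.441%.

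Cd6 (probe set 10466054) encodes the receptor for ALCAM, an adhesion molecule of antigen-presenting and other cells. It measured 9.07, 8.97 and 9.23 in Ly-6C-negative replicates 1, 2 and 3, against 8.70, 8.62 and 8.65 in Ly-6C-positive replicates 1, 2 and 3. The groups were 0.27 apart at their nearest arrays, and replicate 2 was again the lowest of the Ly-6C-negative arrays. The means were 9.09 ± 0.13 and 8.66 ± 0.038 in Ly-6C-negative and Ly-6C-positive cells (SD, n = 3 each). The difference was 0.43, or 1.35-fold, with a standard error of 0.079 and a 95% interval from 0.25 to 0.61 (limma adjusted p = 0.139; 0.106 with the block). The within-pair differences were 0.37, 0.35 and 0.58.

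Both receptor genes passed when Ly-6C-negative replicate 2 was left out. Without it, Cd5 differed by 0.48 (limma adjusted p = 0.0341) and Cd6 by 0.49 (limma adjusted p = 0.0437), and both passed where 0.236% of genes did. Array weights, which gave that array the lowest weight, 0.456, had a like outcome, with a difference of 0.44 for each receptor gene and limma adjusted p of 0.0311 and 0.037, where 0.271% of genes passed. Leaving out any other array gave limma adjusted p between 0.207 and 0.619 for these 2 genes.

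The profiles of Cd5 and Cd6 lay close to each other over the 6 arrays. Likeness was measured as the root mean square distance between profiles after each gene's mean was taken off, over 9304 protein-coding genes brighter than the median gene. Cd6 was 0.056 from Cd5, while Cd5 itself spread by 0.22 around its mean. The nearest other genes to Cd5 were Lrmp at 0.042, Rnf149 at 0.049, Swap70, which encodes a regulator of Rac, at 0.055 and Ampd1, an AMP deaminase gene, at 0.057, so that Cd6 ranked 4 when placed among them. The nearest to Cd6 were Gramd1b at 0.051, Ampd1 at 0.063, Gsap at 0.068 and Swap70 at 0.073. The arrays share the contrast between the populations, and these distances describe 6 arrays only.

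Cd5 and Cd6 are neighbours on chromosome 19, with no protein-coding gene between them in RefSeq's order. The 3 protein-coding genes on either side did not share their direction. Vwce, Pga5 and Vps37c on the Cd5 side differed by -0.087, -0.16 and -0.14, and Slc15a3, Tmem132a and Tmem109 on the Cd6 side by -0.16, -0.11 and -0.075. All 6 lay below 0, and their limma adjusted p ran from 0.772 to 0.917. Vps37c and Tmem132a did not overlap between the populations and were lower on every Ly-6C-negative array, where 6.5% of all genes were. Pga5 and Slc15a3 were dimmer than the median gene, at 5.42 and 6.05 in Ly-6C-negative cells and 5.58 and 6.21 in Ly-6C-positive cells.

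**Figure D2:**
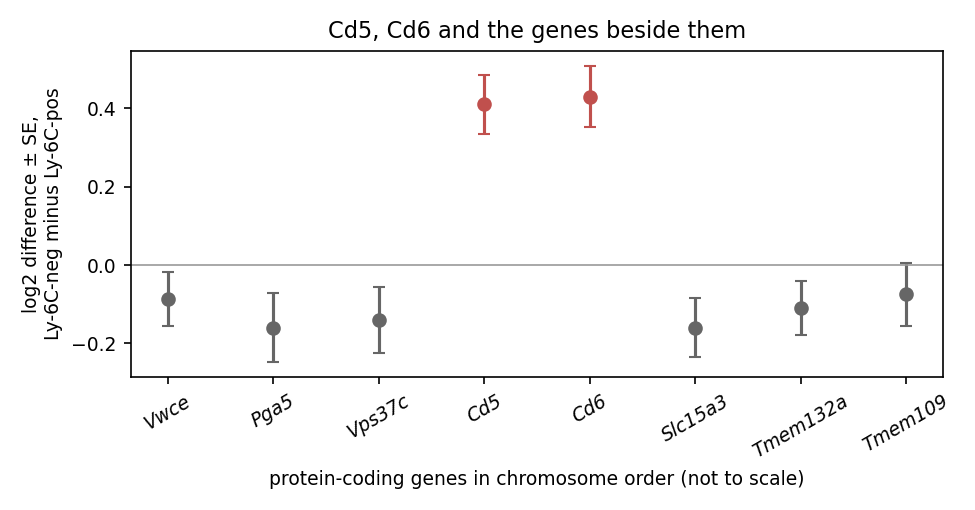
Log2 difference (y axis, Ly-6C-negative minus Ly-6C-positive, ± SE from limma, 3 arrays a group) of Cd5, Cd6 (red) and the 3 protein-coding genes to each side (grey), in chromosome order (x axis, not to scale). Cd5 at 0.41 and Cd6 at 0.43 stand above 0 and the 6 flanking genes below it.

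The stretch before the start of a gene holds many of the sites that transcription factors bind, and ETS factors and E proteins act on many T cell genes. The 250 bases before the start of Cd5, Ubash3b and Sit1, the genes that lay apart between the populations and have a RefSeq promoter, are shown with both alternative starts of Ubash3b (RefSeq, GRCm38.p6). Cd6 and Pag1 had no entry in the promoter table. Capitals mark the ETS core GGAA and the E box CANNTG on either strand. The Cd5 stretch is chr19:10738975-10739224 and the Sit1 stretch chr4:43483710-43483959. The Ubash3b stretches are chr9:41158063-41158312 and chr9:41079507-41079756. All 4 are on the minus strand and are written 5′ to 3′ along the gene.
Cd5: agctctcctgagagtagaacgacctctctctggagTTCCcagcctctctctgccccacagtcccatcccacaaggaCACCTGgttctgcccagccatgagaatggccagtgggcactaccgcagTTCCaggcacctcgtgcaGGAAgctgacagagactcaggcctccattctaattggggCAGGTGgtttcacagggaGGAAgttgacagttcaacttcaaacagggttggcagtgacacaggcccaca
Ubash3b, start 1: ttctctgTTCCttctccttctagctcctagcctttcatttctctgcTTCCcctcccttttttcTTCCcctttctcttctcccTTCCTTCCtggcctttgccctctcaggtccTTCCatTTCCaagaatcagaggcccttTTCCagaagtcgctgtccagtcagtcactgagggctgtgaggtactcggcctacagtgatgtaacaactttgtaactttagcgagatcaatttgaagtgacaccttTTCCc
Ubash3b, start 2: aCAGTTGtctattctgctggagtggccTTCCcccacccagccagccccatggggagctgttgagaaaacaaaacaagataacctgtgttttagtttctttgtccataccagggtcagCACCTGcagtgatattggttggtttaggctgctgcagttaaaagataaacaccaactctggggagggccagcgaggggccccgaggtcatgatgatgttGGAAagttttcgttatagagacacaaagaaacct
Sit1: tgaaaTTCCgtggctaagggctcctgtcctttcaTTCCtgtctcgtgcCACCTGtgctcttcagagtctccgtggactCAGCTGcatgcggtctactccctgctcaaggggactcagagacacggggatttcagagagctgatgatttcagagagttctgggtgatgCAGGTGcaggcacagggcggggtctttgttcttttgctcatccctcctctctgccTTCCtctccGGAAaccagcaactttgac

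The ETS core occurred 4 times before Cd5, 9 and 2 times before the starts of Ubash3b and 4 times before Sit1. It was present in 93.4% of the 32851 promoters of that length, so its presence sets none of these genes apart. The E box occurred 2 times before Cd5, 0 and 2 times before the starts of Ubash3b and 3 times before Sit1, and 66.2% of promoters hold it. Among the genes that overlapped between the populations, Ubash3a had 3 ETS cores and 2 E boxes, and the starts of Csk had 6 and 3 ETS cores and 2 and 1 E boxes. None of these 7 stretches held TGTGGT, the Runx motif, TGANTCA, the AP-1 motif, or AAGGTCA, the Nr4a motif, which 14.0%, 6.75% and 4.08% of promoters hold. GGGCGG, the Sp1 motif, was found 1 time before Sit1 and in 32.7% of promoters. No matches of different motifs overlapped. A match is a run of letters and not a measured binding site.

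Of the phosphatase genes, Ubash3b passed with the block and Ubash3a did not. Ubash3b (probe set 10592515) encodes Sts-1, which is made in many blood cell types and is the more active phosphatase of the pair. It measured 7.32, 7.74 and 7.92 in Ly-6C-negative replicates 1, 2 and 3, against 6.81, 7.02 and 7.20 in Ly-6C-positive replicates 1, 2 and 3. The arrays spread widely within each population, and the lowest Ly-6C-negative array, replicate 1, lay 0.12 above the highest Ly-6C-positive array, replicate 3. The means were 7.66 ± 0.31 and 7.01 ± 0.19 in Ly-6C-negative and Ly-6C-positive cells (SD, n = 3 each). The difference was 0.65, or 1.57-fold, with a standard error of 0.15 and a 95% interval from 0.31 to 0.98 (limma adjusted p = 0.312).

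The spread of Ubash3b was shared by same-numbered arrays. Within pairs it differed by 0.50, 0.71 and 0.73, an SD of 0.12 over the pairs, beside an SD of 0.26 among arrays of a population. With the replicate number as a block the standard error was 0.079 and the interval ran from 0.47 to 0.82 (limma adjusted p = 0.0115, higher in 3 of 3 pairs). The labels do not state these pairs. Over the other alternatives the limma adjusted p lay between 0.133, without Ly-6C-negative replicate 1, and 0.843, without Ly-6C-positive replicate 1. The genes with profiles nearest to Ubash3b were Hipk2 at 0.16, Cd200, whose product engages an inhibitory receptor, at 0.17, and Gpr83 and Mapkapk3 at 0.18, where Ubash3b spread by 0.39 around its mean.

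Ubash3a (probe set 10443749) encodes Sts-2, which is made mainly in lymphocytes. It measured 8.65, 8.56 and 8.92 in Ly-6C-negative replicates 1, 2 and 3, against 8.57, 8.58 and 8.70 in Ly-6C-positive replicates 1, 2 and 3. Replicate 3 was highest in both populations and the groups overlapped. The difference was 0.091, or 1.07-fold, with a 95% interval from -0.12 to 0.31 (limma adjusted p = 0.917). The ratio of Ubash3b to Ubash3a within an array was higher in Ly-6C-negative cells by 0.56 on the log2 scale, with a standard error of 0.17, and did not overlap between the groups of 3 arrays (exact permutation test, 2-sided, p = 0.1, the smallest that 3 against 3 arrays can give). Adjusted over the 3 pairs of genes compared in this way, p was 0.15.

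Sit1 lay the other way from Cd5, Cd6 and Ubash3b, and Pag1 showed no difference beyond its spread. Sit1 (probe set 10512480), whose product binds the phosphatase SHP-2 through its tail, measured 8.38, 8.12 and 8.33 in Ly-6C-negative replicates 1, 2 and 3, against 8.57, 8.75 and 8.70 in Ly-6C-positive replicates 1, 2 and 3. The nearest arrays of the populations, both replicate 1, were 0.19 apart, and replicate 2 held the lowest value in Ly-6C-negative cells and the highest in Ly-6C-positive cells. The means were 8.28 ± 0.14 and 8.67 ± 0.093 in Ly-6C-negative and Ly-6C-positive cells (SD, n = 3 each). The difference was -0.39, so Sit1 was 1.31-fold lower, with a standard error of 0.087 and a 95% interval from -0.59 to -0.20 (limma adjusted p = 0.278; 0.251 with the block). Within pairs it differed by -0.19, -0.63 and -0.36. Its limma adjusted p lay between 0.178 and 0.84 over the alternatives.

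Pag1 (probe set 10497237) measured 7.12, 7.08 and 7.16 in Ly-6C-negative replicates 1, 2 and 3, against 7.12, 7.14 and 7.04 in Ly-6C-positive replicates 1, 2 and 3. All arrays lay within a narrow range and the groups overlapped. The difference was 0.017 with a 95% interval from -0.13 to 0.16 (limma adjusted p = 0.984). The ratio of Sit1 to Pag1 within an array was lower in Ly-6C-negative cells, with a difference of -0.41 and a standard error of 0.09, and did not overlap between the groups of 3 arrays (exact permutation test, 2-sided, p = 0.1; 0.15 adjusted over the 3 pairs). The ratio of Cd5 to Cd6 differed by -0.019 with a standard error of 0.055 (exact permutation test, 2-sided, p = 0.7, and 0.7 adjusted).

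Csk (probe set 10593966), the kinase gene, measured 9.17, 8.99 and 9.11 in Ly-6C-negative replicates 1, 2 and 3, against 9.05, 9.10 and 9.15 in Ly-6C-positive replicates 1, 2 and 3. Ly-6C-negative cells held both the highest and the lowest array. The difference was -0.012 with a 95% interval from -0.17 to 0.15 (limma adjusted p = 0.994), and its sign turned when array medians were subtracted. Taken gene by gene, the exact permutation test over the 6 arrays gave p = 0.1, its smallest value, for Cd5, Cd6, Ubash3b and Sit1, and p = 0.7, 0.6 and 1.0 for Ubash3a, Pag1 and Csk (2-sided, 7 tests, not adjusted).

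**Figure D3:**
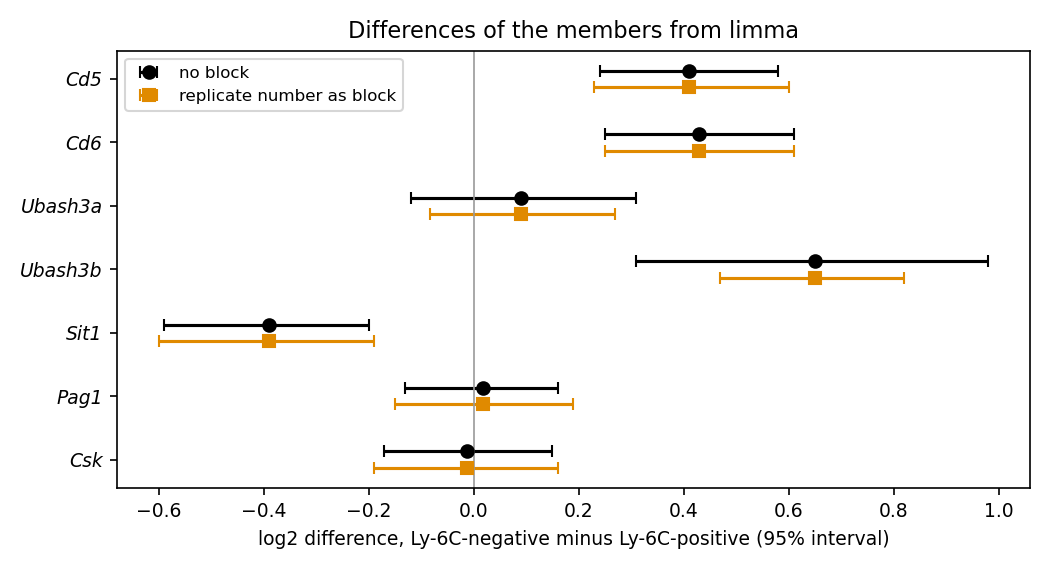
Log2 difference of each gene (x axis, Ly-6C-negative minus Ly-6C-positive) with its 95% interval from limma, without a block (black circles) and with the replicate number as a block (orange squares), 3 arrays a group. The interval of Ubash3b narrows with the block, to between 0.47 and 0.82, and the intervals of Ubash3a, Pag1 and Csk cross 0 in both fits.

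**Figure D4:**
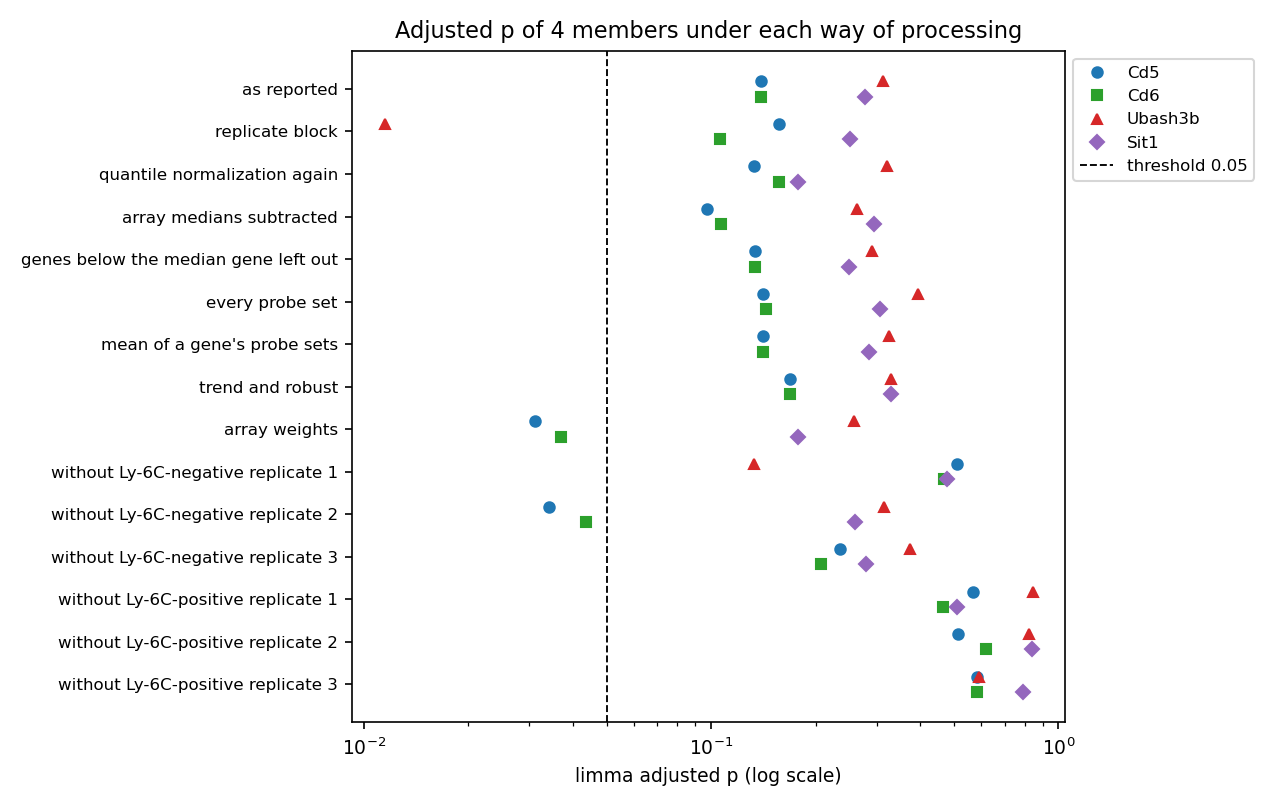
Limma adjusted p (x axis, log scale) of Cd5, Cd6, Ubash3b and Sit1 under each way of processing (rows), with the threshold of 0.05 dashed. Cd5 and Cd6 pass with array weights and without Ly-6C-negative replicate 2, Ubash3b passes with the replicate block, and Sit1 stays at or above 0.178.

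Around these 7 genes, 94 of 99 other genes of the pathway were measured, in 9 lists that share some genes. Of the 94, 4 passed the threshold, all higher in Ly-6C-negative cells, where 0.1% of all genes passed as higher. With the block, 5 passed, where 0.206% of all genes did in either direction. The 4 were Ctla4 in the list of inhibitory receptors and Izumo1r, Cd200 and Tnfrsf9 in the list of genes induced by T cell receptor signals. In the other 7 lists none passed, with or without the block. The lists were also chosen with earlier results of these data known, so their counts and shares are descriptions and not tests.

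None of the 14 measured ligands and partners of CD5 and CD6 passed, and the smallest limma adjusted p was 0.795. Of these genes 9 lay above 0, with a median difference of 0.013. The groups of 4 did not overlap, Cblb, Rasa1, Alcam and Sdcbp, all higher in Ly-6C-negative cells, or 28.6% of the list beside 6.12% of all genes. Cblb, a ubiquitin ligase gene, measured 10.16, 10.07 and 10.37 in Ly-6C-negative replicates 1, 2 and 3, against 10.07, 9.98 and 10.06 in Ly-6C-positive replicates 1, 2 and 3, a difference of 0.17. Ly-6C-negative replicate 2 and Ly-6C-positive replicate 1 were nearly level in Cblb. Rasa1, a Ras GTPase-activating protein gene, differed by 0.14, Alcam, the CD6 ligand, by 0.11 and Sdcbp, the syntenin gene, by 0.091. On the ZAP-70 side of the phosphatases, Zap70 differed by 0.013, Syk by 0.028 and Cbl by 0.0011, beside Cblb.

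Of 12 measured genes that control Src family kinases beside Csk, 11 lay above 0, with a median difference of 0.076, and the smallest limma adjusted p was 0.755. Ptpn22, the gene of a phosphatase that works with Csk, measured 10.92, 10.88 and 11.09 in Ly-6C-negative replicates 1, 2 and 3, against 10.79, 10.79 and 10.84 in Ly-6C-positive replicates 1, 2 and 3, a difference of 0.16 with no overlap. Dok2, an adaptor gene, differed by 0.14, also with no overlap. These 2 of the 12, both higher in Ly-6C-negative cells, were 16.7% of the list beside 6.12% of all genes. The kinase gene Fyn differed by 0.14 and the SHP-1 gene Ptpn6 by 0.096, both with overlapping arrays. Lck had no probe set with a single symbol and was not analysed here.

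Other transmembrane adaptors beside Sit1 and Pag1 had a median difference of -0.099 over 7 genes, 2 of them above 0. Trat1, the gene of the receptor-interacting adaptor TRIM, measured 9.19, 9.17 and 9.56 in Ly-6C-negative replicates 1, 2 and 3, against 9.47, 9.68 and 9.65 in Ly-6C-positive replicates 1, 2 and 3. Ly-6C-negative replicate 3 overlapped the other group, and the difference was -0.29 (limma adjusted p = 0.655). Tyrobp, Lat2 and Hcst differed by -0.16, -0.099 and -0.14, and Lat, the central adaptor of the receptor pathway, was the only other gene of the list below 0. Only the groups of Lat2 did not overlap, lower in Ly-6C-negative cells, where 6.5% of all genes were. Its nearest arrays were nearly level, at 6.89 in replicate 1 of both populations.

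Of 22 measured intracellular negative regulators, 20 lay above 0 and 2 below, with a median difference of 0.070. The groups of 6 did not overlap, all higher in Ly-6C-negative cells, or 27.3% of the list beside 6.12% of all genes. Of these, Cblb, Rasa1, Ptpn22 and Dok2 were already counted in the lists above, and only Dgkz and Sh2b3 were new. Dgkz, a diacylglycerol kinase gene, measured 8.49, 8.52 and 8.60 in Ly-6C-negative replicates 1, 2 and 3, against 8.19, 8.19 and 8.20 in Ly-6C-positive replicates 1, 2 and 3. Its difference of 0.34 did not pass (limma adjusted p = 0.145; 0.191 with the block). Sh2b3, which encodes the adaptor LNK, differed by 0.26 (limma adjusted p = 0.578).

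Ctla4, an inhibitory receptor gene, was higher by 1.34 (limma adjusted p = 0.0121), and the other 11 inhibitory receptors did not pass. Lair1, a collagen receptor gene, differed by -0.29 (limma adjusted p = 0.473), Tigit by 0.13 and Pdcd1, the PD-1 gene, by 0.07. Without overlap, Ctla4 alone was higher in Ly-6C-negative cells, or 8.33% of the list beside 6.12% of all genes. Lair1 alone was lower without overlap, where 6.5% of all genes were. The call of Ctla4 was lost without Ly-6C-negative replicate 1, Ly-6C-positive replicate 2 or Ly-6C-positive replicate 3. Of 19 core genes of the receptor machinery, 11 lay above 0 with a median difference of 0.013, and the smallest limma adjusted p was 0.594, for Rasgrp1 at 0.22. The groups of 3 of them did not overlap, all higher in Ly-6C-negative cells, or 15.8% of the list beside 6.12% of all genes. Plcg1, Cd28 and Grb2 differed by 0.17, 0.16 and -0.17.

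Of 16 genes that T cell receptor signals induce, 15 lay above 0, with a median difference of 0.17. Of the 16, 3 passed, where 0.1% of all genes passed as higher. With the block, which added Icos, 4 passed, where 0.206% of all genes did in either direction. The groups of 8 did not overlap, all higher in Ly-6C-negative cells, or 50.0% of the list beside 6.12% of all genes. This list was chosen with earlier results of these data known, so the share is a description and not a test. Nr4a1, Nr4a2 and Nr4a3 differed by 0.34, 0.23 and 0.088, and Egr1, Egr2 and Egr3 by 0.11, 0.057 and 0.068. Cd69 differed by -0.024, and none of these genes passed. Izumo1r, Cd200 and Tnfrsf9 were higher by 1.03, 0.86 and 0.50 (limma adjusted p of 0.0020, 0.0112 and 0.0325), and Tnfrsf4 differed by 0.39 (limma adjusted p = 0.139). The number that passed was 1 without Ly-6C-negative replicate 1, Ly-6C-positive replicate 1 or Ly-6C-positive replicate 2. The other scavenger receptor cysteine-rich family genes had a median difference of -0.038 over 8 genes with none past the threshold. Cd163, a macrophage gene, differed by -0.12, Lgals3bp by 0.13, Scara5 by -0.092 and Ssc5d by -0.049. Without overlap, Cd163 was lower in Ly-6C-negative cells, where 6.5% of all genes were, and Lgals3bp higher, where 6.12% were.

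**Figure D5:**
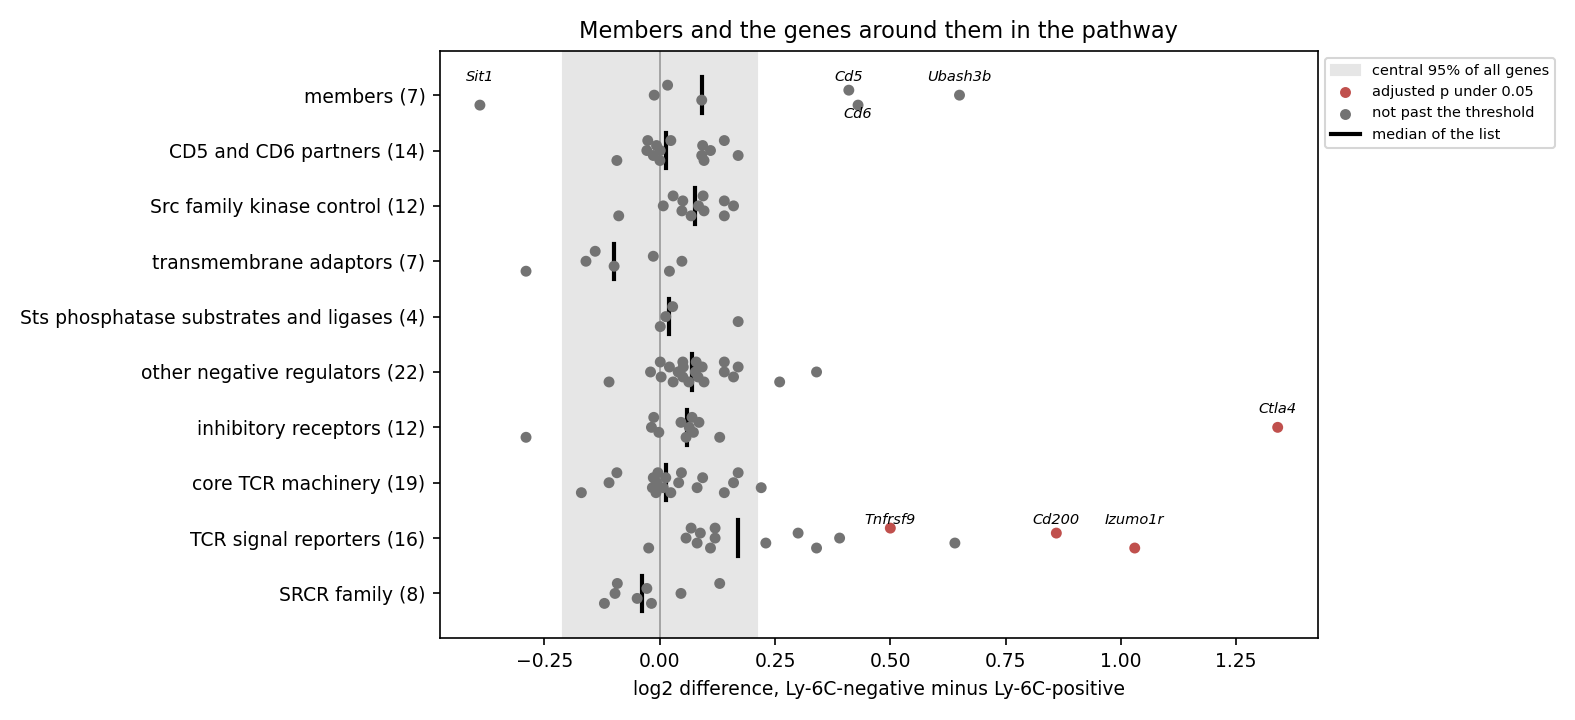
Log2 difference (x axis, Ly-6C-negative minus Ly-6C-positive) of each measured gene in the 7 genes and the 9 lists around them (rows, number measured in brackets), with the list median as a black bar and the central 95% of all genes, from -0.21 to 0.21, in grey. Red points passed a limma adjusted p of 0.05; Cd5, Cd6, Ubash3b and Sit1 lie outside the grey band and Ctla4, Cd200, Izumo1r and Tnfrsf9 are the genes that passed.

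Markers of regulatory T cells, cells that also make CD5, moved with the higher Cd5, Cd6 and Ubash3b. Of 6 markers 4 passed, Izumo1r, Ctla4, Ikzf2 and Gpr83, all higher in Ly-6C-negative cells, where 0.1% of all genes passed as higher. The calls of Izumo1r and Ctla4 are the same as those given above in the lists of receptor-induced genes and inhibitory receptors. The summed linear signal of all 6 markers lay between 1675 and 1862 on Ly-6C-negative arrays and between 863 and 963 on Ly-6C-positive arrays. Ctla4 alone made up between 46.2% and 54.1% of that sum on Ly-6C-negative arrays and between 34.1% and 45.7% on Ly-6C-positive arrays. The other 5 markers summed to between 855 and 901 on Ly-6C-negative arrays and between 523 and 569 on Ly-6C-positive arrays. The defining markers did not follow: Foxp3 averaged 6.67 and 6.66 and Il2ra, the CD25 gene of the sort, 5.41 and 5.29 in Ly-6C-negative and Ly-6C-positive cells, with differences of 0.013 and 0.12. Cd44, also of the sort, differed by -0.25 (limma adjusted p = 0.427), Cd4 by -0.089 and Cd8a by -0.029. The part of these markers in the differences of the 7 genes was not tested.

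No marker of the other cell types examined passed as higher in Ly-6C-negative cells in limma. The B cell markers summed to between 254 and 261 on Ly-6C-negative arrays and between 259 and 260 on Ly-6C-positive arrays, with 0 of 6 past the threshold. Those of monocytes, macrophages and neutrophils summed to between 220 and 227 and to between 213 and 222, with 0 of 7 past it. Those of dendritic cells summed to between 216 and 232 and to between 224 and 241 in Ly-6C-negative and Ly-6C-positive cells, with 0 of 5 past it. NK and innate lymphoid markers summed to between 265 and 344 on Ly-6C-negative arrays and between 453 and 574 on Ly-6C-positive arrays, with Klrd1, the CD94 gene, lower by a difference of -1.50 (limma adjusted p = 0.0263). The other 5 NK markers did not pass, and without Klrd1 they summed to between 152 and 164 on Ly-6C-negative arrays and between 136 and 151 on Ly-6C-positive arrays. Of the 6 markers, 3 lay above 0 and 3 below. Eomes, a transcription factor gene of NK and memory T cells, averaged 6.55 and 6.28 in Ly-6C-negative and Ly-6C-positive cells, a difference of 0.27 with every Ly-6C-negative array higher (limma adjusted p = 0.473). Klre1 and Klrb1c differed by 0.027 and 0.0083, and Ncr1 and Klrk1 by -0.054 and -0.053. The part of cells with Klrd1 in the lower Sit1 was not tested. Markers of CD8 T cells, gamma-delta and NKT cells, stroma and erythrocytes had 0 of 2, 0 of 3, 0 of 5 and 0 of 1 measured genes past the threshold, with median differences between -0.074 and 0.076.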

How the data were processed

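The authors deposited a log2 value for each of 28853 probe sets and 6 mouse arrays (Affymetrix), 3 for each population. Per the labels' protocols, cells were enriched with beads and sorted, and 50 ng of RNA was amplified and 5 µg of cDNA given a biotin label. RMA and Partek are named in the submitters' processing notes. RMA makes the arrays' distributions alike and compresses differences of dim genes. The genome build is not given in the sources used here.

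The brightest probe set with a single symbol in the platform annotation stood for each gene. Under R 4.3.3, limma 3.58.1 (eBayes after lmFit, 2-sided, no filter, no covariate) was fitted on all 19938 genes, with Benjamini-Hochberg adjustment over all of them, and the steps were tested on simulated data. Arrays of the same number deviated from their own group's mean with correlations of 0.129, 0.128 and 0.107, all above 0.1, so the numbers were read as pairs; the labels do not state it. The text names the 7 genes, up to 4 genes per list by p, those past the threshold, nearest profiles, chromosome neighbours and sort genes. Some further list genes, such as the Nr4a and Egr genes, are also named. Members and lists were chosen with earlier results of these data known. Summed marker signals are sums of 2 to the power of the log2 value. No protein sequence was used here. Alternatives were other normalizations, probe-set rules, variance models, thresholds and leaving out each array.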

Additional observations from a re-analysis of the deposited data

How the results depend on the processing

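The 7 differences were recomputed under 15 alternatives, all planned, which gave 105 values. Of these, 93 kept their sign and their side of the threshold, 5 passed where the reported fit did not and 7 changed sign. Some alternatives left every difference as reported, so only the side of the threshold could change there. These were the replicate block, leaving out genes below the median gene, both probe-set rules, the trend and robust variance model and the threshold of 0.1. With array weights Cd5 and Cd6 passed, each at a difference of 0.44, so that 2 of the 7 genes passed, and with the replicate block Ubash3b passed at 0.65, so that 1 did; the block changed no other call among the 7 genes. Csk turned to 0.012 with array medians subtracted and to 0.026 with array weights, from a difference near 0. Leaving out each array in turn gave 5 to 47 genes and 0 to 2 of the 7 genes past the threshold. It gave differences from 0.37 to 0.48 for Cd5, 0.36 to 0.49 for Cd6, 0.52 to 0.82 for Ubash3b, -0.45 to -0.31 for Sit1, -0.013 to 0.17 for Ubash3a, -0.011 to 0.037 for Pag1 and -0.052 to 0.041 for Csk. Ubash3a turned negative at -0.013 without Ly-6C-negative replicate 3, Pag1 at -0.0016 without that array and at -0.011 without Ly-6C-positive replicate 3. Csk turned positive at 0.041 without Ly-6C-negative replicate 2 and at 0.015 without Ly-6C-positive replicate 3. The inhibitory receptors past the threshold numbered 0 to 1 and the genes induced by receptor signals 1 to 4. Over all genes, 45 passed with every probe set as its own feature and 54 with array weights, against 29. The cause of these changes was not tested. With 3 arrays a group, the standard errors of the 7 differences lay between 0.065 and 0.15.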
